A study of Mus musculus with 8 samples.

Results

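The genes described here are 10 members of the interleukin-1 (IL-1), inflammasome and Toll-like receptor pathways, chosen by name: the cytokine gene *Il1b*, its antagonist *Il1rn*, the receptor genes *Il1r1*, *Il1rap* and *Il1r2*, the Toll-like receptor genes *Tlr2* and *Tlr4* with their coreceptor *Cd14*, and the inflammasome genes *Nlrp3* and *Casp1*. They were measured among 16536 genes, and all 10 passed the filter on low counts, which kept 15421 genes. The RNA came from femoral growth plate cells of Pthrp-mCherry mice, whose mCherry reporter follows *Pthlh*, which encodes parathyroid hormone–related protein. Cells of both femora of a mouse were sorted by FACS for mCherry and for CD73 on the surface, and each mouse gave 1 library. Mice received SAG, an agonist of Smoothened that activates Hedgehog signaling throughout the body, or its vehicle DMSO. Injections were i.p. once daily from postnatal day 30 to day 36, the mice were sacrificed at day 38, and there were 4 mice in each group. The study's methods place the injections 1 day later. All 8 mice carried the same reporter, and the labels do not give their sex.

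IL-1β is made as an inactive precursor after Toll-like receptors sense microbial products or molecules from damaged cells. Inflammasome sensors such as NLRP3 then activate caspase-1, which cleaves the precursor to the secreted cytokine. IL-1β signals through IL1R1 together with the accessory protein IL1RAP, whereas IL1R2 binds the cytokine without signaling and IL1RN occupies the receptor without activating it. Both receptor branches use the adaptor MYD88 and lead to NF-κB. In bone, myeloid cells such as neutrophils and macrophages are the best known source of IL-1β, and chondrocytes respond to it with release of matrix-degrading enzymes. Transcript levels, which are what was measured here, do not show whether IL-1β was cleaved or secreted.

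Each library held between 24971992 and 46593090 counted reads. DMSO replicate 4 stood apart: it had the fewest reads and the fewest detected genes (14416 against 15524 to 16285), and its Spearman correlation across genes with the other DMSO-treated mice was 0.846 to 0.875, where pairs of SAG-treated mice reached 0.944 to 0.956. Calls of the 10 genes that change without it are therefore given both ways, and those of other genes only where stated.  Chondrocyte marker genes were abundant in every mouse, with a summed level of 44677 to 100434 CPM (reads of a gene after libraries were brought to a common size with edgeR's TMM factors) in the DMSO-treated mice and 17259 to 48667 CPM in the SAG-treated mice. Markers of neutrophils were also present in every mouse and none of the 15 was at 0, with a summed level of 5401 to 15320 CPM with DMSO and 29047 to 46174 CPM with SAG. Of these 15 genes, 11 were higher with SAG and 0 were lower (quasi-likelihood test of edgeR at an adjusted p under 0.05), and the median log2 fold change was 2.01. Summed levels of 14 monocyte and macrophage markers overlapped between the groups, at 660 to 1353 CPM with DMSO and 711 to 1012 CPM with SAG. By edgeR 1 of the 14, *Ly6c2*, was higher and 0 were lower, and the median log2 fold change of the list was 0.23. Opposite in sign to that median, *Mertk* and *F13a1* had log2 fold changes of −0.99 and −1.03, with all SAG-treated mice below all DMSO-treated mice. Their adjusted p was 0.114 and 0.147 by edgeR, and 0.0657 and 0.0476 by edgeR without DMSO replicate 4. By DESeq2 the adjusted p was 0.0275 and 0.0321 for these genes and 0.00291 for *Ly6c2*. Of 11 chondrocyte genes 1 (*Col10a1*) was lower, and 0 genes of 10 further marker lists passed in either direction by edgeR. In bulk samples such as these, fewer cells of a type and less RNA per cell cannot be told apart.

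Promoter sequences from RefSeq (GRCm38.p6) were matched for 8 of the 10 genes, in 12 windows. The windows below are shown for the most abundant member, for 1 Toll-like receptor gene, for the inflammasome sensor and for a receptor gene whose mean was lower with SAG. They end before the annotated start and leave out annotated exons, and they are written 5′ to 3′ on the strand of the gene. Capitals mark matches on either strand. The motifs searched were TATAAA, the letters of a core promoter box, a PU.1 type motif with the letters GAGGAAG, a C/EBP type motif with the letters TTGCNNAA, and the NF-κB consensus, whose matches can overlap each other. The window of *Il1b* is chr2:129371140-129371389 (minus strand), that of *Tlr2* chr3:83841768-83841858 (minus strand), that of *Nlrp3* chr11:59542436-59542685 (plus strand) and that of *Il1r1* chr1:40224830-40225079 (plus strand).
Il1b: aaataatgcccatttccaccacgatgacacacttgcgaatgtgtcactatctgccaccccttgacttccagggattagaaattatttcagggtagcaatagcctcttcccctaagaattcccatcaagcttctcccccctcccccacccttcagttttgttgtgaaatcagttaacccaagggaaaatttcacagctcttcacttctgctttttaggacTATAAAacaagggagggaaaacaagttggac
Tlr2: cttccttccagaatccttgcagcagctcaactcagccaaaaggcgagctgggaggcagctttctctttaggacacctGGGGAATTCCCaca
Nlrp3: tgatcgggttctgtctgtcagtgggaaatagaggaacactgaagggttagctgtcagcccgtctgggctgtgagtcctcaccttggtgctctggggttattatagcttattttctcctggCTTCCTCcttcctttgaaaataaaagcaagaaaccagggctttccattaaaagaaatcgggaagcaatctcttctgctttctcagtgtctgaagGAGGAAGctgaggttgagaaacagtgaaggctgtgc
Il1r1: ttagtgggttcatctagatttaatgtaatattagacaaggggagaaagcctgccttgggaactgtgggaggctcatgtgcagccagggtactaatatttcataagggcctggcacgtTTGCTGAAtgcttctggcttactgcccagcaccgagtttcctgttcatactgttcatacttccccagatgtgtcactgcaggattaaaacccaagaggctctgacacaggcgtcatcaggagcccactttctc
The core promoter box match of *Il1b* began 31 bases before the start, and such letters occur in 12.4% of the 32851 mouse promoter windows of 250 bases. In *Tlr2*, 2 overlapping matches to the NF-κB consensus began 173 and 172 bases before the RefSeq start. That start lies within the annotated gene. The *Tlr2* window shown ends 160 bases before it, directly before the first base of the gene, so the matches lie closer to that base. This consensus was found in 3.9% of all windows. Among the other windows of the 8 genes it occurred in the other window of *Il1r1* and of *Nlrp3*, and *Il1b* held none in the 250 bases searched. The *Nlrp3* window shown lies within the annotated gene, before a further start. It held 2 PU.1 type matches (10.6% of all windows), 130 and 36 bases before that start. The other *Nlrp3* window, before the first base of the gene, held no PU.1 type match. The *Il1r1* window shown held 1 C/EBP type match (9.56% of all windows). A match is a description of these letters and not evidence that a factor was bound.

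Expression of 8 of the 10 genes was on average higher in cells from SAG-treated mice, but 0 of the 10 were called higher and 0 lower by edgeR (threshold of 0.05 on the adjusted p). Over all tested genes 2.62% were called higher and 0.266% lower. Before adjustment, 6 of the 10 had a p under 0.05 by edgeR and were higher (*Cd14*, *Tlr2*, *Il1b*, *Il1rn*, *Tlr4* and *Il1r2*), none was lower, and 9.58% of all genes were higher by this measure. DESeq2 called 5 higher, namely *Cd14*, *Tlr2*, *Il1b*, *Tlr4* and *Il1rn* (5.17% of all genes), and limma voom with sample quality weights called 5, namely *Cd14*, *Tlr2*, *Il1b*, *Il1rn* and *Il1r2* (6.45% of all genes). Without DMSO replicate 4 edgeR called 5, and these were *Cd14*, *Tlr2*, *Il1b*, *Il1rn* and *Il1r2* (6.44% of all genes). The median log2 fold change of the 10 was 0.85, beside −0.08 over all tested genes. The SAG-treated mice were all above the DMSO-treated mice for 4 of the 10 (*Il1b*, *Il1rn*, *Cd14* and *Tlr4*) and below for 0, while 7.9% of all tested genes lay wholly above and 3.84% wholly below.

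**Figure D1:**
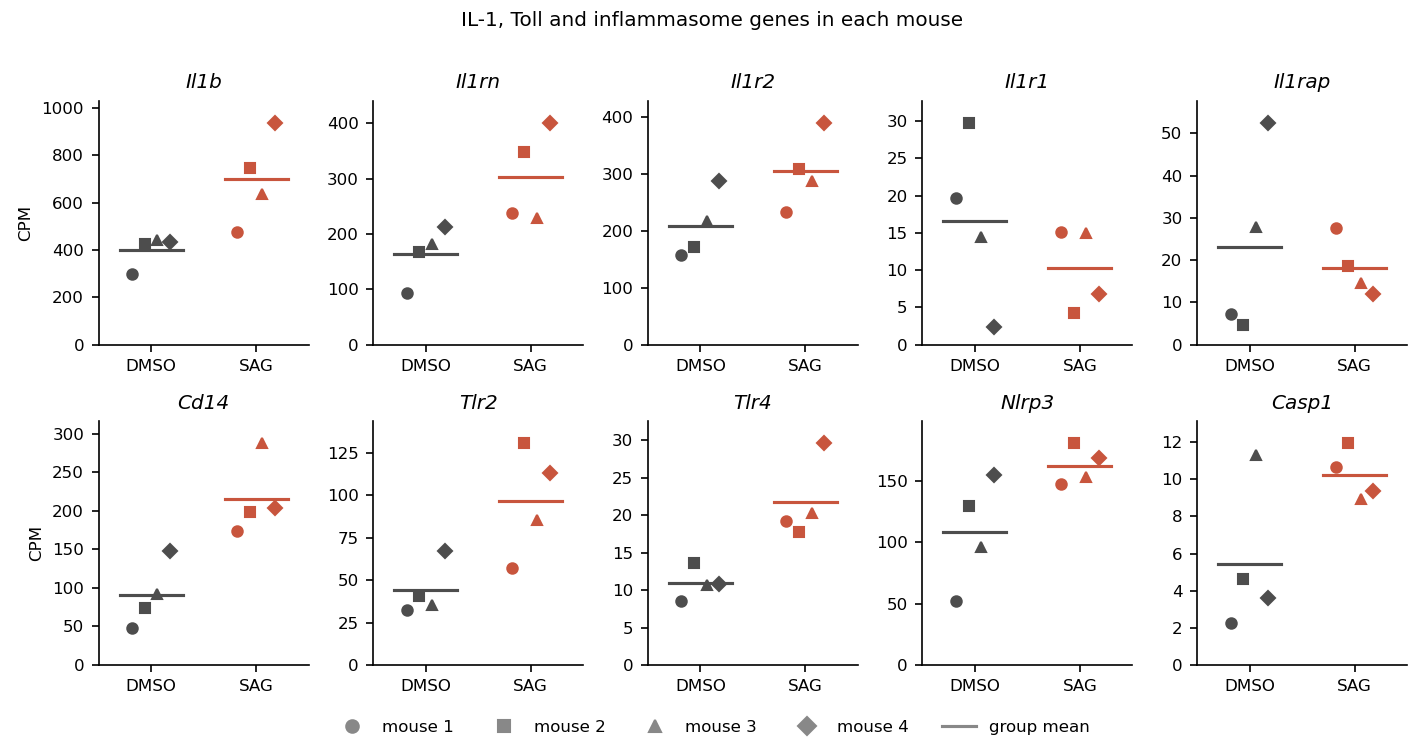
Expression of the 10 genes in each mouse, in CPM on a linear axis from 0 that differs between panels. Points are mice, marker shapes are replicate numbers, which do not pair the groups, and lines are group means. *Il1b*, *Il1rn*, *Cd14* and *Tlr4* show no overlap between the groups, and DMSO replicate 4 has the lowest *Il1r1* (2.32 CPM) and the highest *Il1rap* (52.4 CPM).

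*Il1b* (ENSMUSG00000027398.13, GRCm38 chr2:129364570-129371139, minus strand) was the member with most reads. Its level was 299, 426, 443 and 432 CPM in DMSO replicates 1 to 4 and 476, 748, 638 and 936 CPM in SAG replicates 1 to 4. All SAG-treated mice were higher than all DMSO-treated mice, although SAG replicate 1 exceeded the highest DMSO-treated mouse by little. The means were 399.8 ± 67.8 CPM and 699.5 ± 193 CPM (SD, n = 4 each), and the log2 fold change was 0.81 ± 0.23 (SE), with an adjusted p of 0.0877 (edgeR). It was 0.87, with an adjusted p of 0.044, without DMSO replicate 4, and 0.96 without SAG replicate 1, with an adjusted p that rounds to 0.05, just inside the threshold. The antisense gene *Il1bos* overlaps *Il1b* in the annotation, and the strand setting of the counting is not given in the sources used here.

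*Il1rn* (ENSMUSG00000026981.15, chr2:24336853-24351494, plus strand), the gene of the secreted antagonist, had levels of 93.8, 168, 183 and 212 CPM with DMSO and 238, 348, 228 and 400.3 CPM with SAG. Both groups spread widely but did not overlap. The log2 fold change was 0.89 ± 0.27, with an adjusted p of 0.114 (edgeR), and 1.06 with an adjusted p of 0.032 without DMSO replicate 4. Set against each other, there were 0.108 to 0.169 *Il1rn* reads per *Il1b* read, each per kilobase of exon, in the DMSO-treated mice and 0.123 to 0.173 in the SAG-treated mice. The log2 ratio differed by 0.13 between the groups (exact 2-sided permutation test over 70 relabellings, p = 0.486, unadjusted as for all 5 ratios compared). Leaving out each mouse gave 0.012 (without DMSO replicate 1) to 0.227 (without DMSO replicate 4).

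The receptor genes had fold changes of either sign, and 0 of the 3 passed by edgeR. *Il1r2* (ENSMUSG00000026073.13, chr1:40074079-40125231, plus strand), the decoy receptor, had levels of 158, 172, 218 and 288 CPM with DMSO and 233, 309.8, 288 and 389.9 CPM with SAG. The groups overlapped, because DMSO replicate 4 was as high as the middle of the SAG group. The log2 fold change of 0.55 ± 0.23 had an adjusted p of 0.262 (edgeR), and without DMSO replicate 4 it was 0.77, with an adjusted p of 0.0382. *Il1r1* (ENSMUSG00000026072.12, chr1:40225080-40317257, plus strand), the signaling receptor, was at 19.7, 29.7, 14.5 and 2.32 CPM with DMSO and at 15.1, 4.23, 15.0 and 6.84 CPM with SAG. Values were scattered in both groups and the lowest of all was DMSO replicate 4. The log2 fold change of −0.69 ± 0.66 had a 95% interval from −2.14 to 0.76 (adjusted p of 0.696, edgeR) and therefore spans falls as well as rises. It was −0.24 without DMSO replicate 2, −0.43 without SAG replicate 2 and −1.02 without DMSO replicate 4. *Il1rap* (ENSMUSG00000022514.14, chr16:26581704-26730117, plus strand), the accessory chain, ranged from 4.55 to 52.4 CPM among DMSO-treated mice and from 11.9 to 27.7 CPM among SAG-treated mice. The 2 lowest values and the highest all belonged to the DMSO group. The log2 fold change of −0.34 ± 0.65 (adjusted p of 0.871, edgeR) turned to 0.49 without DMSO replicate 4.

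Per kilobase of exon, *Il1r2* exceeded *Il1r1* in every mouse. The ratio was 26.7, 19.3, 50.1 and 415 in DMSO replicates 1 to 4 and 51.5, 244, 64.2 and 190.0 in SAG replicates 1 to 4. Transcripts of the decoy therefore outnumbered those of the signaling receptor, but the ratio overlapped between the groups, with a log2 difference of 0.96 (exact permutation test, p = 0.371). The difference was 0.44 without DMSO replicate 2, 1.91 without DMSO replicate 4 (exact permutation test, p = 0.0571) and 0.58 without SAG replicate 2. The *Il1r2* to *Il1rap* ratio overlapped likewise, with a log2 difference of 0.34 (exact permutation test, p = 0.714).

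*Il1r2* and *Il1r1* are neighbours in a run of 6 protein-coding receptor genes on the plus strand of chr1:40074079-40551705. The others in order are *Il1rl2*, *Il1rl1*, *Il18r1* and *Il18rap*, which encode receptor chains for the cytokines IL-36, IL-33 and IL-18. *Il18rap*, at the far end, was the 1 gene of the run that passed the test. It rose from 57.5, 69.5, 54.4 and 62.5 CPM with DMSO to 109, 172, 147 and 162 CPM with SAG, with a log2 fold change of 1.27 ± 0.19 and an adjusted p of 0.0102 (edgeR). Its groups lay far apart relative to their spread, and it was called in all 8 fits that left out 1 mouse. The partner chain *Il18r1* had a log2 fold change of 0.62 ± 0.36, with an adjusted p of 0.46, and the IL-33 receptor gene *Il1rl1* one of 1.12 ± 0.46, with an adjusted p of 0.254. *Il1rl2* was at or below 4.99 CPM in every mouse and gave 1.34 ± 1.35.

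**Figure D2:**
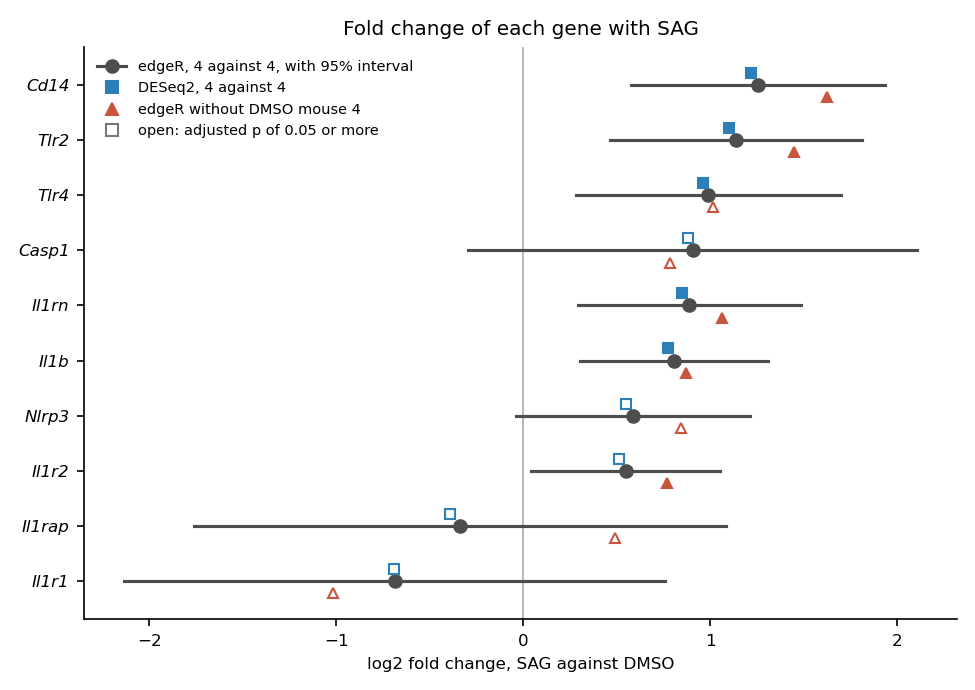
Log2 fold change of each gene, SAG against DMSO, by edgeR with its 95% interval (circles and bars), by DESeq2 (squares), and by edgeR without DMSO replicate 4 (triangles); filled squares and triangles have an adjusted p under 0.05. *Cd14* and *Tlr2* have the largest edgeR estimates (1.26 and 1.14), and *Il1rap* changes sign when DMSO replicate 4 is left out.

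Among *Cd14*, *Tlr2* and *Tlr4* the largest estimate was that of *Cd14*, the coreceptor that passes lipopolysaccharide to TLR4 and lipopeptides to TLR2. *Cd14* (ENSMUSG00000051439.7) was at 48.5, 73.9, 92.0 and 148 CPM with DMSO and at 174, 199, 288 and 204 CPM with SAG. The groups did not overlap, and DMSO replicate 4 was the control closest to the SAG group. *Cd14* had a mean of 90.5 ± 42.1 CPM with DMSO and 216 ± 49.6 CPM with SAG, a log2 fold change of 1.26 ± 0.31 (95% interval 0.58 to 1.93) and an adjusted p of 0.0543 (edgeR), just outside the threshold. Without DMSO replicate 4 the log2 fold change was 1.63 and the adjusted p 0.00282.

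*Tlr2* (ENSMUSG00000027995.10, chr3:83836272-83841767, minus strand), the receptor for bacterial lipoproteins, was at 32.4, 40.7, 35.3 and 67.5 CPM with DMSO and 57.1, 131, 85.8 and 113 CPM with SAG. Only DMSO replicate 4 and SAG replicate 1 were in reversed order. The log2 fold change of *Tlr2* was 1.14 ± 0.31, with an adjusted p of 0.0743 (edgeR). It was 1.45 with an adjusted p of 0.00719 without DMSO replicate 4, and 1.33 with an adjusted p of 0.0463 without SAG replicate 1. *Tlr4* (ENSMUSG00000039005.13, chr4:66827584-66930284, plus strand), the lipopolysaccharide receptor, was lower throughout, at 8.56, 13.7, 10.7 and 10.8 CPM with DMSO and 19.2, 17.8, 20.4 and 29.6 CPM with SAG. DMSO replicate 4 was not set apart for this gene, and the groups did not overlap. Its log2 fold change of 0.99 ± 0.32 had an adjusted p of 0.139 (edgeR), and of 0.0372 with DESeq2. The log2 ratio of *Tlr2* to *Tlr4* differed by 0.15 between the groups (exact permutation test, p = 0.571).

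*Nlrp3* (ENSMUSG00000032691.14, chr11:59541568-59566956, plus strand), the inflammasome sensor, was at 51.8, 129.5, 95.9 and 155 CPM with DMSO and at 147, 181, 153 and 168 CPM with SAG. The SAG-treated mice lay close together, 2 of them above the highest DMSO-treated mouse and 2 below it. Its log2 fold change was 0.59 ± 0.29 (95% interval −0.04 to 1.21), with an adjusted p of 0.349 (edgeR), and it ranged from 0.36 without DMSO replicate 1 to 0.84 without DMSO replicate 4. *Casp1* (ENSMUSG00000025888.5, chr9:5298517-5307265, plus strand), the IL-1β converting protease, was at 2.24, 4.64, 11.3 and 3.61 CPM with DMSO and at 10.6, 11.9, 8.92 and 9.37 CPM with SAG. DMSO replicate 3 lay within the SAG range and the other DMSO-treated mice below it. The log2 fold change of *Casp1* was 0.91 ± 0.55, with an adjusted p of 0.478 (edgeR), and 1.52 with an adjusted p of 0.21 without DMSO replicate 3. Between 95 and 502 reads per mouse lay behind these *Casp1* values, against 11380 to 41037 for *Il1b*. The *Nlrp3* to *Casp1* ratio did not differ beyond its spread, with a log2 difference of −0.46 (exact permutation test, p = 0.457), but was −0.92 without DMSO replicate 3 (exact permutation test, p = 0.0286).

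Set in order by level per kilobase of exon (CPM per kilobase), the 10 genes spanned 2 orders of magnitude. In DMSO-treated mice *Il1b* came first at 209.7 ± 35.6 (SD, n = 4), followed by *Il1r2* at 109 ± 30.9 and *Cd14* at 52.3 ± 24.3. *Il1rn* at 29.7 ± 9.10 and *Nlrp3* at 26.6 ± 11.0 did not differ beyond their spread, and *Tlr2* followed at 14.6 ± 5.33. *Casp1* (3.64 ± 2.69), *Il1r1* (2.60 ± 1.79), *Il1rap* (2.02 ± 1.95) and *Tlr4* (1.97 ± 0.379) could not be told apart by their spread. The first 7 places were the same in the SAG-treated mice, where *Il1b* reached 367 ± 101 and *Tlr4*, at 3.91 ± 0.963, stood before *Il1r1* (1.62 ± 0.879) and *Il1rap* (1.60 ± 0.608). Transcripts of the ligand and of both its natural inhibitors were thus all far above those of the signaling receptor pair.

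Because neutrophil markers differed between the groups, each gene was also counted per 1000 reads of the 15 neutrophil markers. On this scale 95.1% of all tested genes were lower on average with SAG, with a median log2 difference of −2.01. All 10 genes were lower too, with log2 differences from −2.46 for *Il1r1* to −0.72 for *Cd14*. Every SAG-treated mouse was below every DMSO-treated mouse for 5 of the 10, *Il1b*, *Il1r2*, *Il1rn*, *Tlr2* and *Nlrp3*, and each of these gave the smallest p that the exact 2-sided permutation test allows (p = 0.0286, unadjusted, 10 genes compared). Of all tested genes 56.4% lay wholly below in the same way, so 5 of 10 is near the background. Without DMSO replicate 4, *Il1r1* (log2 difference of −3.51) and *Tlr4* (−1.35) reached an exact permutation p of 0.0286 as well, from 0.143 and 0.0571 with all mice. The share of all tested genes wholly below without that mouse was not computed, so these 2 cannot be set against a background. *Il1b* stood at 46.1, 78.9, 41.4 and 28.2 reads per 1000 marker reads with DMSO and at 16.4, 16.2, 20.2 and 22.8 with SAG. *Nlrp3* was at 8.0, 24.0, 8.97 and 10.1 with DMSO and at 5.07, 3.91, 4.85 and 4.11 with SAG. The SAG-treated mice were closely alike in both. *Cd14* was at 7.49 to 13.7 reads with DMSO and at 4.31 to 9.09 with SAG, and these groups overlapped (exact permutation test, p = 0.0857). Without SAG replicate 3 the log2 difference of *Cd14* was −0.93, with an exact permutation p of 0.0286, and here too the share over all tested genes was not computed. With 11 chondrocyte marker genes as the denominator the order turned, and 91.9% of all tested genes were higher on average with SAG. All 10 genes were then higher, by 0.66 (*Il1r1*) to 2.40 (*Cd14*) on the log2 scale, and the groups did not overlap for *Il1b*, *Il1rn*, *Cd14*, *Tlr4* and *Casp1* (exact permutation test, p = 0.0286 for each), while 21.9% of all tested genes lay wholly above on this scale. Whether the differences in CPM came from the share of any cell type was not tested.

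**Figure D3:**
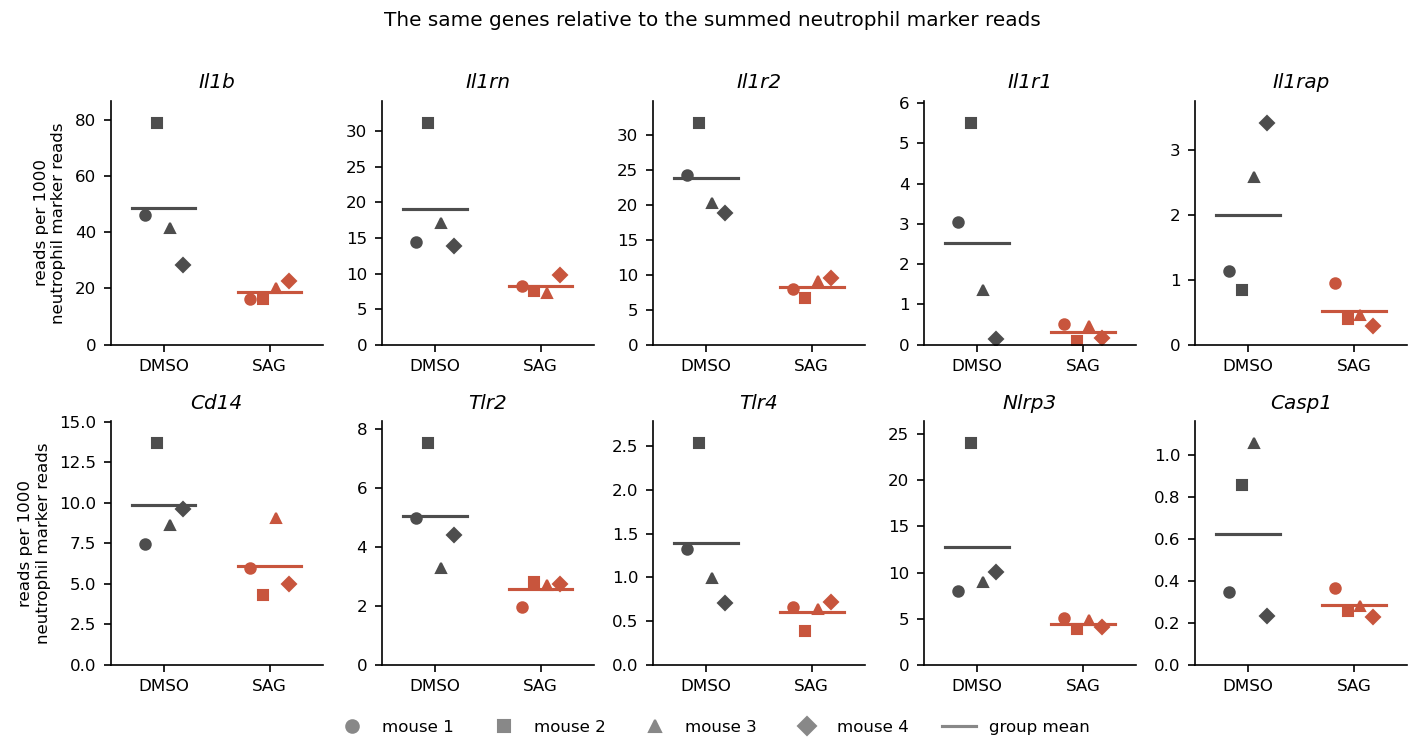
Reads of each gene per 1000 summed reads of 15 neutrophil markers, by mouse, on linear axes from 0 that differ between panels. Points are mice and lines are group means. The SAG-treated mice lie below all DMSO-treated mice for *Il1b*, *Il1rn*, *Il1r2*, *Tlr2* and *Nlrp3*.

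Beyond the 10, a list of 112 genes of the same pathways held 103 in the table, all of them tested. Of these 4 were higher with SAG (*Il18rap*, *Tlr13*, *Myd88* and *Lcn2*) and 0 were lower, and 69 had a log2 fold change above 0. Over all tested genes 2.62% were called higher, so 4 of 103 is near the background, and 45.2% had a log2 fold change above 0. The median log2 fold change of the 103 was 0.30, beside −0.08 over all tested genes. By unadjusted p under 0.05 edgeR gave 23 as higher and 1 as lower, where 9.58% of all genes were higher. With each mouse left out the number of higher genes was 2 to 14, while that over all tested genes ran from 80 to 1017. The 14 were reached without DMSO replicate 4, together with 1 lower gene, which was *Mmp13*, a collagenase of hypertrophic cartilage, with an adjusted p of 0.0215 in that fit and 0.51 with all mice (edgeR).

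Upstream in the pathway, *Tlr13*, which senses bacterial ribosomal RNA in endosomes, had levels of 12.5, 9.31, 30.1 and 23.5 CPM with DMSO and 57.9, 63.7, 73.0 and 82.4 CPM with SAG. Its groups were far apart, and it was the 1 called gene of 17 Toll receptors and accessory proteins, with a log2 fold change of 1.88 ± 0.36 and an adjusted p of 0.0187 (edgeR), which was above the threshold without DMSO replicate 1 or 2 or SAG replicate 2, 3 or 4 (highest value 0.0697). The median of those 17 was −0.18, and the most abundant of them did not pass: the chaperone *Hsp90b1* had a log2 fold change of −0.29, the transport protein gene *Unc93b1* one of 0.33, and the lipopolysaccharide-binding protein gene *Lbp* one of −0.06. *Myd88*, the adaptor shared by the IL-1 and most Toll-like receptors, rose from 80.6, 65.1, 83.0 and 48.4 CPM to 119.6, 136, 118 and 125 CPM. SAG-treated mice were all above the controls and close to each other, with a log2 fold change of 0.85 ± 0.20 and an adjusted p of 0.0494 (edgeR), just inside the threshold. The call was lost with any mouse but DMSO replicate 4 left out (adjusted p up to 0.147). It was the 1 gene of 22 in shared signal transduction called by edgeR with all mice, and the median was 0.41. Of the 22, 18 log2 fold changes were above 0 (45.2% of all tested genes). At an unadjusted p under 0.05 edgeR gave 7 as higher and 0 as lower (9.58% of all tested genes were higher). DESeq2, limma voom and edgeR without DMSO replicate 4 each called *Irak3* and *Irak4* higher (5.17%, 6.45% and 6.44% of all tested genes). The most abundant others were the kinase gene *Map3k7* at −0.39, *Pik3ap1* at 0.03 and *Tab2* at 0.31, none of which passed.

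Among 20 inflammasome sensors, adaptors, caspases and gasdermin genes 0 passed in either direction (edgeR), 5 had an unadjusted p under 0.05, all higher, and the median log2 fold change was 0.25. Over all tested genes 9.58% were higher at that p, and the median was −0.08. DESeq2 and limma voom each called *Gsdmd*, the gene of the pore-forming protein cleaved by caspase-1, and *Txnip*, a thioredoxin inhibitor, which edgeR gave adjusted p-values of 0.0778 and 0.0744. Without DMSO replicate 4 edgeR called *Gsdmd* and *Txnip* higher as well. Of all tested genes DESeq2 called 5.17% higher, limma voom 6.45% and edgeR without that mouse 6.44%. *Ninj1*, a mediator of membrane rupture, gave a log2 fold change of 0.66, with an adjusted p of 0.149 by edgeR, and *Nek7*, a binding partner of NLRP3, one of −0.02. In the other IL-1 family ligands and antagonists 0 of 4 passed by edgeR, DESeq2 or limma voom, and 0 had an unadjusted p under 0.05. *Il1a*, the second IL-1 receptor ligand, was at 1.33 to 16.8 CPM with DMSO and 7.82 to 20.1 CPM with SAG, *Il18bp* gave a log2 fold change of 0.59 and *Il18* one of −0.06.

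Downstream, 0 of 15 genes of the NF-κB module passed (edgeR), 3 had an unadjusted p under 0.05, all higher, and 14 of 15 log2 fold changes were above 0, with a median of 0.30. The shares over all tested genes were 9.58% higher at that p and 45.2% above 0. DESeq2 called 1 of the 15 higher, *Nfkbiz* (5.17% of all tested genes), and limma voom 3, *Nfkbia*, *Nfkbiz* and *Tnfaip3* (6.45% of all tested genes). These 3, the most abundant of the list, are feedback or cofactor genes that NF-κB itself is known to induce. Without DMSO replicate 4 edgeR called *Nfkbia* and *Nfkbiz* higher (6.44% of all tested genes). *Nfkbiz* was at 372 to 477 CPM with DMSO and 539 to 739.8 CPM with SAG, without overlap, and gave a log2 fold change of 0.63 ± 0.17, with an adjusted p of 0.0813 by edgeR. *Nfkbia* had 0.54 ± 0.24 and *Tnfaip3* 0.73 ± 0.24, with overlap in both. Inducible target genes were mixed, with 1 of 18 called by edgeR, 8 above 0 and a median of −0.15. For 4 of the 18 all SAG-treated mice were above all DMSO-treated mice, beside 7.9% of all tested genes. The called gene, *Lcn2*, is also 1 of the 15 neutrophil markers, and rose by 2.17 ± 0.35 on the log2 scale (adjusted p of 0.0112, and 0.0538 without DMSO replicate 3). *Cxcl2*, a neutrophil attractant, gave a log2 fold change of 1.09 ± 0.29 without overlap and an adjusted p of 0.0743 by edgeR. DESeq2, limma voom and edgeR without DMSO replicate 4 each called *Cxcl2* and the cytokine gene *Tnf* higher (5.17%, 6.45% and 6.44% of all tested genes). *Ptgs2*, the inducible cyclooxygenase, gave a log2 fold change of 0.56 ± 0.28, and the adhesion molecule gene *Icam1* one of −0.19 ± 0.26.

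**Figure D4:**
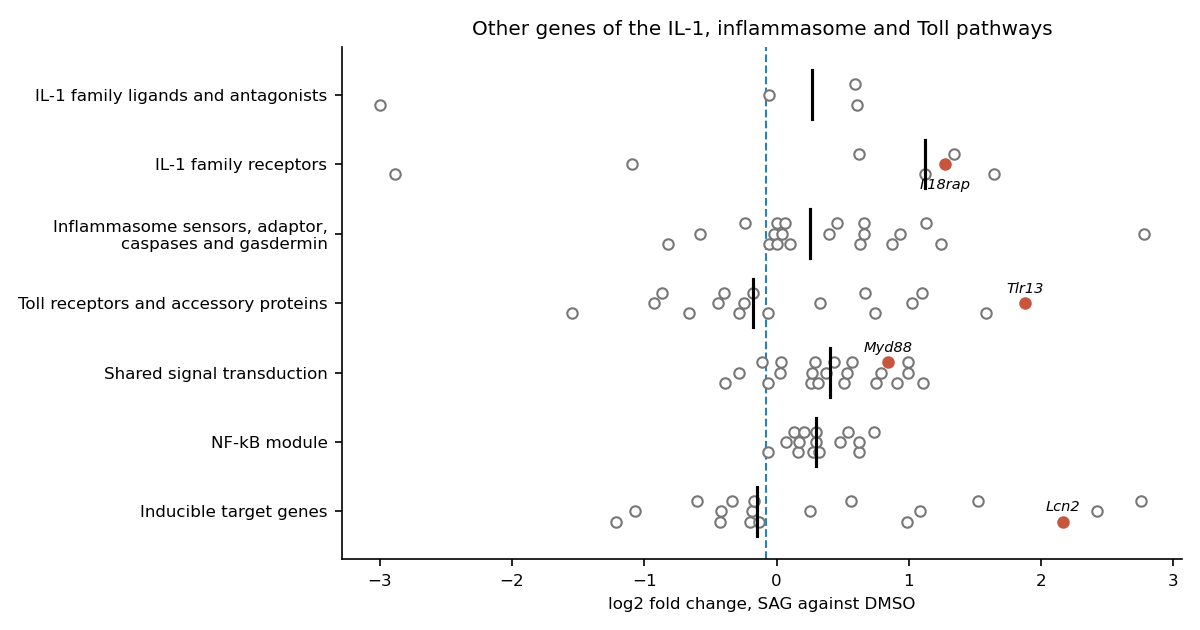
Log2 fold change, SAG against DMSO (edgeR), of 103 other genes of the IL-1, inflammasome and Toll pathways in 7 lists. Each point is a gene, filled where the adjusted p is under 0.05, black bars are list medians, and the dashed line is the median of all tested genes (−0.08); the 4 filled points are *Il18rap*, *Tlr13*, *Myd88* and *Lcn2*.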

How the data were processed

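The authors deposited raw read counts per gene for 8 libraries, made with kallisto on GRCm38 according to the submitters' processing notes, which also name DESeq2. Versions and strand setting are not given in the sources used here. All values were whole numbers. In R 4.3.3, edgeR 4.0.16 (filterByExpr, TMM, robust quasi-likelihood test) compared 4 SAG-treated with 4 DMSO-treated mice over 15421 genes, with Benjamini-Hochberg adjustment over all of them and a threshold of 0.05. The fit was run on simulated data with a dispersion set below the common dispersion of 0.466 in these data, so its power here was not tested. Between-gene levels used exon lengths from GENCODE M21. Ratios used counts with 0.5 added and exact 2-sided permutation tests. Depth was 24971992 to 46593090 reads, at which 3 counts equal 0.067 to 0.114 CPM (counting error only). Alternatives were DESeq2 1.42.0, limma 3.58.1 voom, other scalings and filters, a replicate block and leaving out each mouse. A covariate for the Y-linked gene *Ddx3y* (above or below 10 CPM) was added after seeing the data. The 10 genes, the pathway and marker lists and the tests were chosen with earlier results of these data known. Named were all 10 genes, pathway genes with an adjusted p under 0.05, and the 3 most abundant others of each list. *Gsdmd*, *Mmp13*, *Tnf*, *Irak3* and *Irak4* were named after their values were seen, as were the marker genes *Ly6c2*, *Mertk*, *F13a1* and *Col10a1*. The rule would also name the genes nearest in profile to each called member, and no member was called. Same-numbered mice were not paired. Promoters came from RefSeq, and *Cd14* and *Tlr4* were not analysed there. The result of 1 further marker list is not reported here.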

Additional observations from a re-analysis of the deposited data

Results flagged for a closer look

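In 78 sets of 4 mice (each gene, ratio and marker sum in each group) 1 mouse was checked for lying far from the other 3, and 4 sets had such a mouse, where chance gives about 1 in 20. *Il1b* in DMSO replicate 1, at 299 CPM, lay below the next lowest DMSO-treated mouse at 426 CPM. *Nlrp3* in DMSO replicate 2, at 24.0 reads per 1000 neutrophil marker reads, lay above the next highest at 10.1. *Tlr2* in SAG replicate 1 stood at 1.97 reads per 1000 neutrophil marker reads, below the next lowest at 2.71. The summed level of monocyte and macrophage markers in DMSO replicate 1 was 1353 CPM, above the next highest at 771 CPM. None of the 4 was in DMSO replicate 4, the library that stood apart across all genes.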

How the results depend on the processing

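With 0 of the 10 genes called higher by edgeR, the count was 5 with DESeq2, 5 with limma voom, 2 (*Cd14* and *Tlr2*) with at least 10 counts in every sample, and 0 to 5 with each mouse left out, reached without DMSO replicate 4. None was called with other scalings, without a filter or with the *Ddx3y* covariate. Same-numbered mice correlated at 0.0102 to 0.12 in their deviations and were not treated as paired; with the replicate block 1 gene, *Cd14*, was called. *Il1rap* turned to 0.74 with limma voom, 0.25 with the replicate block and lay between −0.68 and 0.49, without DMSO replicates 2 and 4, when each mouse was left out. The other 157 of 160 repeated member fold changes kept their direction, and 20 of the 160 passed the threshold; the cause was not tested. For the other pathway genes 4 higher became 11 with DESeq2, 15 with limma voom, 7 with at least 10 counts in every sample and 2 to 14 with each mouse left out, and 0 lower became 0 to 1. Calls over all tested genes moved as well. There 404 higher by edgeR became 797 with DESeq2 and 995 with limma voom. With at least 10 counts in every sample it was 558 of 12031 genes, and with each mouse left out 80 to 1017. With each mouse left out the log2 ratio difference was 0.44 to 1.91 for *Il1r2* to *Il1r1*, −0.092 to 0.83 for *Il1r2* to *Il1rap*, −0.10 to 0.38 for *Tlr2* to *Tlr4* and −0.92 to −0.14 for *Nlrp3* to *Casp1*, which without DMSO replicate 3 gave an exact permutation p of 0.0286. Chondrocyte in place of neutrophil marker reads turned every relative difference, to 1.84 (*Il1b*), 0.66 (*Il1r1*), 1.62 (*Il1r2*), 1.97 (*Il1rn*), 1.28 (*Il1rap*), 2.40 (*Cd14*), 2.19 (*Tlr2*), 2.04 (*Tlr4*), 1.76 (*Nlrp3*) and 2.22 (*Casp1*) on the log2 scale. Relative to neutrophil markers, *Il1b* and *Tlr2* gave an exact permutation p of 0.0571 with any SAG-treated mouse left out. The fewest reads of any of the 10 genes were 61 (*Il1r1*, DMSO replicate 4), and 4 mice a group limit the exact tests to p of 0.0286 or more.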

Other observations

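Among 11199 tested genes with a mean of at least 5 CPM, the gene whose profile over the 8 mice was nearest to that of *Il1b* was *Hcar2*, a receptor for hydroxy-carboxylic acids, at a root mean square difference of 0.0536 on the centred log2 CPM scale. The nearest to *Il1r2* was *Nampt*, an enzyme of NAD synthesis, at 0.118, the nearest to *Il1rn* was *Lcp2*, an adaptor of leukocyte receptors, at 0.147, and the nearest to *Casp1* was *Il18bp* at 0.301. For *Il1rap* the nearest gene, *Lrrc14*, was at 0.43. These genes were named after their values were seen. This distance is not divided by the spread of a gene, and *Il1b* (299 to 936 CPM) varied less between mice than *Il1rap* (4.55 to 52.4 CPM). The smaller distance for *Il1b* therefore does not show that it moved more closely with its neighbour. Mice also share the depth and makeup of their libraries across all genes compared.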
